A study of Mus musculus with 8 samples.

Results

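The genes described here are 45 genes of the WNT pathway, chosen by symbol and sorted by role into 12 ligands, 12 receptors, 6 nuclear effectors, 3 genes of the beta-catenin destruction complex, 10 secreted or surface antagonists and 2 cytoplasmic feedback inhibitors. All 45 were found among the 54418 Ensembl genes of the deposited count table. The libraries were made from melanocyte stem cells, the reserve that supplies the hair follicle with pigment cells, sorted at postnatal day 21 from mouse dorsal skin as live, non-autofluorescent cells positive for GFP. All mice were of mixed C57Bl-6;129Sv background, ate doxycycline pellets and carried Dct-rtTA and TRE-H2B-GFP, a reporter that marks cells in which Dct is active. The 4 control libraries came from Bmi1fl/fl mice without Cre. The 4 Bmi1-deleted libraries came from Bmi1fl/fl mice that also carried Tyrosinase-Cre, which drives Cre in the melanocyte lineage, so that presence of Cre and loss of Bmi1 cannot be told apart. Whether each replicate was a different animal is not in the labels, so the p-values speak for the spread among these libraries, which may be technical.

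Library totals ran from 8882656 to 10368174 counts. Bmi1 itself had 705 to 859 counts in control and 607 to 713 in Bmi1-deleted libraries (exact two-sided permutation p = 0.0286 on CPM, the smallest that 70 assignments can give), and 159.7 ± 25.2 against 81.3 ± 25.5 in TPM rescaled as described below (SD, n = 4). In the deposited TPM, without that rescaling, Bmi1 stood at 30.4 ± 6.14 and 13.4 ± 4.84. CPM are counts scaled to library size, and TPM divide by transcript length as well. In the edgeR test across all genes Bmi1 did not pass (log2 change −0.26, SE 0.12, adjusted p = 0.607, 0.435 with the replicate block). The 12 melanocyte lineage markers summed to 9268 to 15341 CPM in control and 5261 to 10753 in Bmi1-deleted libraries. The 17 fibroblast markers summed to 5062 to 8522 and 8302 to 18186 CPM. Of these, 12 of 14 tested had a log2 change above 0 (median 0.88), against 50.7% of all tested genes. The 15 keratinocyte markers summed to 1705 to 2072 and 1213 to 3377 CPM. In bulk samples such as these, fewer cells of a type and less RNA per cell cannot be told apart.

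WNT proteins are secreted lipid-modified ligands that bind Frizzled receptors together with the co-receptors Lrp5 and Lrp6. In the canonical branch this stops the destruction complex of Axin, Apc and its kinases from marking beta-catenin for breakdown, and beta-catenin then joins TCF/LEF factors on DNA. In the hair follicle, WNT signals start the growth phase and drive the differentiation of melanocyte stem cells, while secreted antagonists are known for keeping the niche quiet.

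The sorted cells held far more RNA for the intracellular and receptor end of the pathway than for its ligands. Levels of different genes are compared here as TPM rescaled after leaving out Gm23935 and CT010467.1, which took 74.0% to 85.9% of the deposited TPM of a library. The highest member in control cells was Ctnnb1, which encodes beta-catenin, at 695 ± 106 TPM (SD, n = 4). It exceeded the next member, the secreted Dkk-family gene Dkk3, at 186 ± 32.1 TPM, by more than both SDs. Axin1 (170 ± 51.0), Axin2 (129 ± 27.1), Nkd1 (119 ± 20.5) and Apc (111 ± 20.4) followed in TPM, with neighbours in this order closer than their summed SDs. The co-receptor gene Lrp6 came next at 67.6 ± 6.03 TPM. Of the 45 members, 22 had a control mean of at least 10 TPM, and among the 12 ligands only Wnt6 did.

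**Figure D1:**
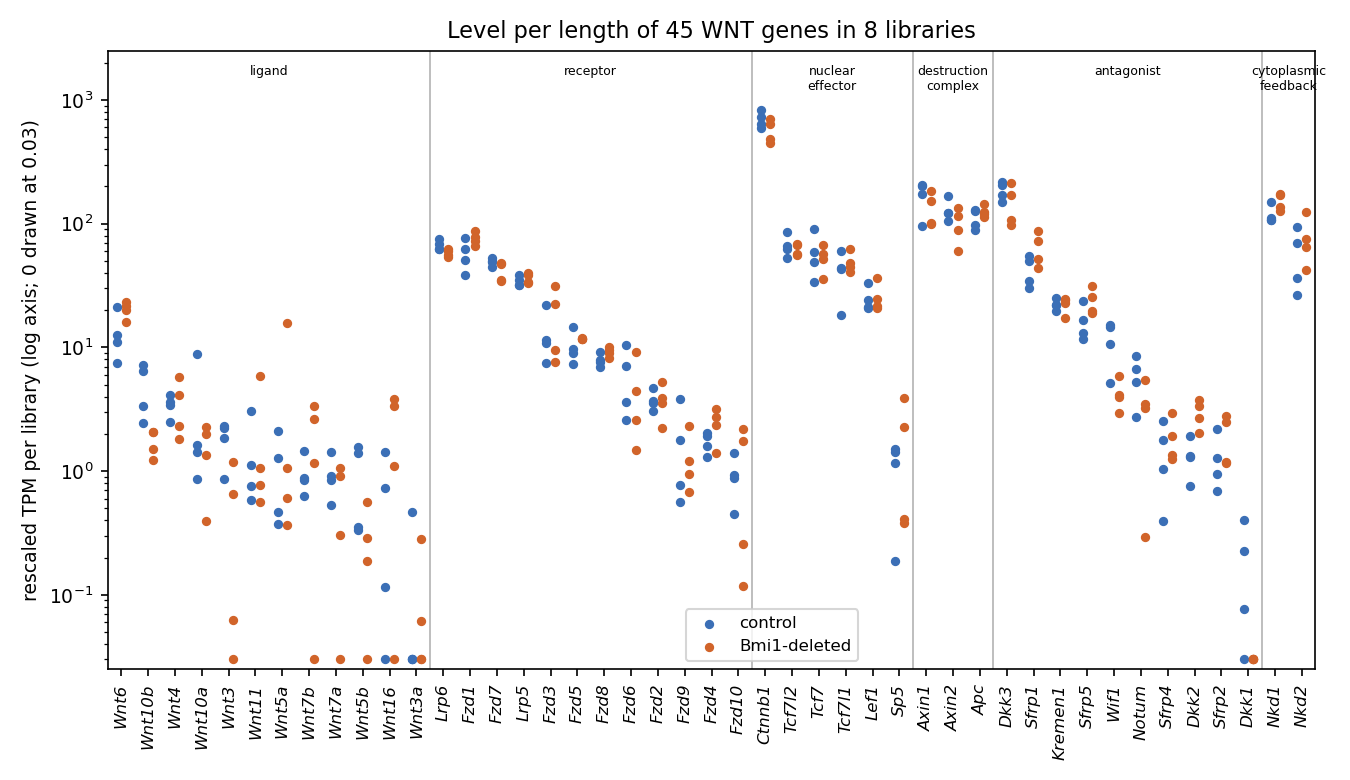
Rescaled TPM of the 45 WNT genes in each library, on a log axis, ordered by role and then by control mean; each point is 1 library, blue for control and orange for Bmi1-deleted, and values of 0 are drawn at 0.03. Ctnnb1 stands highest, with 592 to 832 TPM in the control libraries, and Wnt6 is the highest ligand, with 7.44 to 21.1 TPM.

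No WNT gene passed the genotype test in the filtered fit with unpaired replicates, and 4 passed once the replicate number was a block. The count filter kept 41 of the 45 members. Of these, 0 rose and 0 fell by edgeR at an adjusted p under 0.05, where 0.0937% of all 16011 tested genes were called (0.0874% higher and 0.00625% lower in Bmi1-deleted cells). DESeq2 also called 0 members, against 0.766% of the genes it tested (0.514% higher and 0.252% lower). At an unadjusted p under 0.05, 11 members were counted by edgeR (6 higher and 5 lower) and 13 by DESeq2, while 8.27% of all genes passed that edgeR criterion (4.82% higher and 3.45% lower). By DESeq2 8.84% of the same genes with a p did so (5.39% higher and 3.44% lower). With the replicate block Fzd1 and Sfrp1 rose and Ctnnb1 and Axin2 fell, 4 of 41 members (9.76%) against 2.41% of all genes (1.71% higher and 0.706% lower). For 5 of the 41 members (12.2%) the CPM ranges of the genotypes were separate, as they were for 5.18% of all genes (2.79% higher and 2.39% lower). These were Wnt10b, Lrp6, Ctnnb1 and Notum, lower in every Bmi1-deleted library, and Dkk2, higher in every one. The median log2 change (Bmi1-deleted against control) was 0.10 over the 41 members and 0.01 over all tested genes. With the block the median of the members was −0.03, on the other side of 0.

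**Figure D2:**
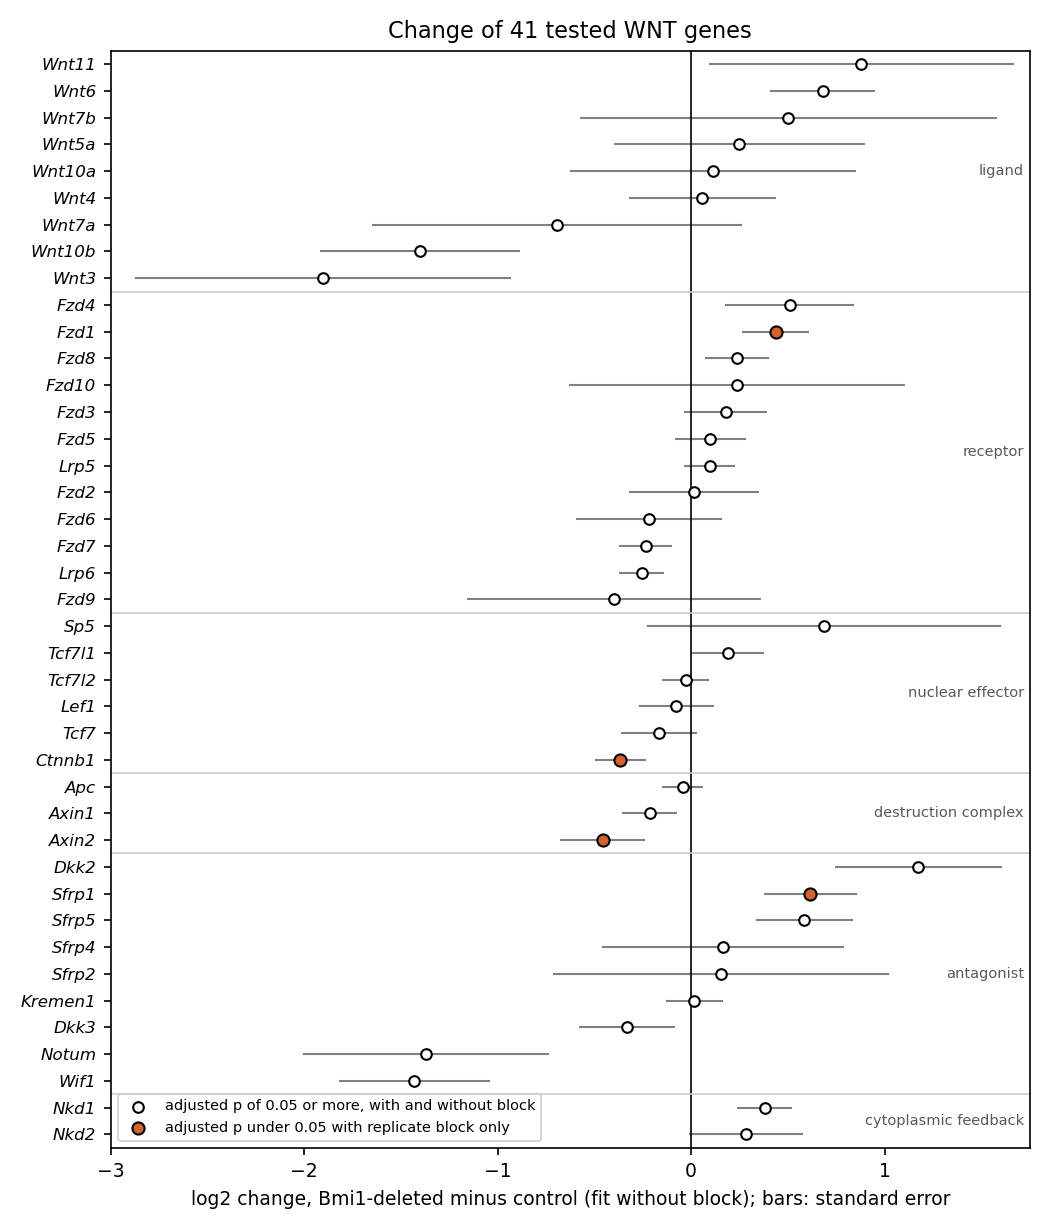
Log2 change of each of the 41 tested WNT genes from the fit without block, Bmi1-deleted against control, grouped by role, with bars for the standard error. Filled points mark the 4 genes that passed with the replicate block and not in the fit drawn here. Fzd1 (0.44) and Sfrp1 (0.62) lie to the right of 0 and Ctnnb1 (−0.37) and Axin2 (−0.46) to the left.

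Ligand genes were low in both genotypes, and none passed, either without the block or with the block alone. Wnt6 (ENSMUSG00000033227, mm10 chromosome 1, 74771892 to 74785322), a ligand of skin and hair follicle epithelium, had 22.8, 14.2, 13.1 and 8.82 CPM in control libraries 1 to 4 and 24.7, 23.7, 18.7 and 27.3 in Bmi1-deleted libraries 1 to 4. It was higher in each Bmi1-deleted library than in the control of the same number, but control 1 lay within the range of the deleted group (log2 change 0.68, SE 0.27, adjusted p = 0.525, 0.179 with the block). Wnt6 held 27.5% to 58.8% of the summed ligand TPM in control and 37.8% to 73.7% in Bmi1-deleted libraries. The lowest share of either genotype was in library 3. There Wnt10a (8.92 TPM in control) or Wnt5a (15.8 TPM in Bmi1-deleted) was high in TPM from 36 counts. An antisense gene, Gm29539, overlaps it, and whether the counting used strand is unknown here, so reads of both could be mixed.

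Wnt10b (chromosome 15, 98770712 to 98778150), a canonical ligand known for activating hair growth, had 3.61, 3.30, 7.60 and 6.11 CPM in control libraries and 1.43, 1.39, 1.78 and 3.17 in Bmi1-deleted libraries. Every Bmi1-deleted library was below every control library, by a small margin between control 2 and Bmi1-deleted 4 (log2 change −1.40, SE 0.52, adjusted p = 0.481, 0.272 with the block). Wnt3, another canonical ligand, had a log2 change of −1.91 (SE 0.97, adjusted p = 0.648), with 1.49 to 4.19 CPM in control libraries and 0 to 2.10 in Bmi1-deleted ones. Its counts were 14, 31, 38 and 37 in control and 19, 12, 1 and 0 in Bmi1-deleted libraries. The change rests on Bmi1-deleted 3 and 4, at −0.51 within replicates 1 and 2 and −5.91 within 3 and 4. The remaining tested ligands, Wnt4, Wnt5a, Wnt7a, Wnt7b, Wnt10a and Wnt11, had log2 changes from −0.69 (Wnt7a) to 0.88 (Wnt11), all with overlapping groups. The Wnt11 mean rests on Bmi1-deleted 1, at 6.51 CPM against 0.556 to 1.59 in the other deleted libraries.

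The filter left out 3 ligands. Wnt3a had 0 to 7 counts per library, Wnt5b had 4 to 17 in control and 0 to 6 in Bmi1-deleted libraries, and Wnt16 had 0 to 9 and 0 to 36. A count of 0 allows up to 3 counts, which is 0.298 to 0.340 CPM, for counting error only. With no filter their log2 changes had SEs of 1.23 (Wnt16) to 2.23 (Wnt3a), and none passed.

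Among the receptors, Fzd1 rose with the replicate block and the rest did not pass. Fzd1 (ENSMUSG00000044674, chromosome 5, 4753839 to 4758035), a Frizzled receptor of the canonical branch, had 184, 151, 130 and 96.5 CPM in control and 192, 220, 181 and 166 in Bmi1-deleted libraries. Each deleted library exceeded the control of its number, with control 1 inside the range of the deleted group (0.44, SE 0.17, adjusted p = 0.527 without the block, 0.0478 with it). When single pairs were dropped from the blocked fit, Fzd1 passed in 1 of 4 fits, that without pair 1, with a highest adjusted p of 0.276. Within replicates 1 and 2 alone the log2 change was 0.30, and within 3 and 4 alone 0.60.

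The co-receptor gene Lrp6 (chromosome 6, 134446476 to 134566965) had 221, 275, 242 and 225 CPM in control and 187, 214, 189 and 216 in Bmi1-deleted libraries. The groups did not overlap, but control 1 and Bmi1-deleted 4 were close (−0.26, SE 0.12, adjusted p = 0.586, 0.27 with the block). Lrp5, its partner in the same complex, stood at 107 ± 15.3 and 114 ± 10.8 CPM (n = 4, edgeR adjusted p = 0.923). Fzd7, a Frizzled receptor common in stem cells, was at 131 ± 6.57 and 111 ± 20.4 CPM (−0.24, adjusted p = 0.727). The other Frizzled genes, Fzd2 to Fzd6 and Fzd8 to Fzd10, had log2 changes between −0.40 (Fzd9) and 0.51 (Fzd4), all with overlapping groups. In TPM the order in control cells was Lrp6, Fzd1, Fzd7 and Lrp5, from 67.6 to 34.4 TPM. By CPM per kb of merged exons it was Fzd1 (33.5), Fzd7 (28.9), Lrp6 (17.6) and Lrp5 (11.0), so the place of Lrp6 depends on the measure. In TPM Lrp6, Fzd1 and Fzd7 were each within the summed SDs of the next, and Fzd7 (48.9 ± 3.41 TPM) exceeded Lrp5 (34.4 ± 3.14 TPM) by more than theirs.

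Ctnnb1 fell with the block, while the TCF/LEF factors that beta-catenin binds had log2 changes near 0. Ctnnb1 (ENSMUSG00000006932, chromosome 9, 120929216 to 120960507) had 883, 923, 1013 and 1111 CPM in control and 650, 689, 847 and 866 in Bmi1-deleted libraries. All deleted libraries were below all controls, and within each genotype libraries 3 and 4 were above libraries 1 and 2 (−0.37, SE 0.13, adjusted p = 0.477 without the block, 0.0436 with it). The blocked call was lost with any pair left out (highest adjusted p 0.2). The log2 change was −0.43 within replicates 1 and 2 and −0.33 within 3 and 4. The protein-coding gene Ulk4 overlaps Ctnnb1 on the opposite strand.

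Tcf7l2 and Tcf7 were the highest of the TCF/LEF genes in TPM (66.5 ± 13.7 and 57.9 ± 23.6 in control, within their summed SDs). By CPM per kb of merged exons Tcf7 stood above Tcf7l2 (21.0 against 8.05). Tcf7l2 had 68.2, 79.5, 66.1 and 68.7 CPM in control and 68.2, 68.1, 76.0 and 65.0 in Bmi1-deleted libraries, with overlapping groups (−0.03, SE 0.12, adjusted p = 0.983). Tcf7 stood at 55.0 ± 12.7 and 49.0 ± 10.4 CPM, Tcf7l1, which mainly represses, at 25.5 ± 5.47 and 29.1 ± 2.07, and Lef1, a factor of hair follicle and melanocyte lineages, at 38.1 ± 7.43 and 36.1 ± 7.37 (SD, n = 4). The log2 changes of these 3 lay between −0.17 and 0.19, with SEs of 0.19 to 0.20. Sp5, a direct target gene that encodes a repressor, was close to the detection limit, with 2, 13, 16 and 16 counts in control and 4, 5, 41 and 24 in Bmi1-deleted libraries (0.69, SE 0.91, adjusted p = 0.92).

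In the destruction complex, Axin2 fell with the block and Axin1 and Apc did not pass. Axin2 (ENSMUSG00000000142, chromosome 11, 108920349 to 108950783), a scaffold protein whose gene is itself a widely used readout of canonical signalling, had 167, 178, 200 and 256 CPM in control and 89.1, 132, 171 and 191 in Bmi1-deleted libraries. Each deleted library was below the control of its number, but the groups overlapped through deleted libraries 3 and 4 (−0.46, SE 0.22, adjusted p = 0.633 without the block, 0.0311 with it). With single pairs dropped the blocked call held in 1 of 4 fits, that without pair 3 (highest adjusted p 0.166). A term for replicates 1 and 2 against 3 and 4, in place of the block, left Axin2 short of the threshold (edgeR adjusted p = 0.0548). The log2 change was −0.64 within replicates 1 and 2 and −0.35 within 3 and 4. An antisense gene, Gm11670, overlaps Axin2. Axin1, the constitutive scaffold, had 92.5, 75.5, 120 and 97.2 CPM in control and 85.5, 76.4, 80.3 and 89.6 in Bmi1-deleted libraries, overlapping (−0.21, SE 0.14, adjusted p = 0.783). Apc, the large scaffold subunit, stood at 268 ± 8.14 and 260 ± 18.4 CPM (−0.04, adjusted p = 0.965).

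The cytoplasmic feedback inhibitors Nkd1 and Nkd2 did not pass, and their log2 changes were above 0 where that of Axin2 was below it. Nkd1, an inhibitor of Dishevelled that canonical signalling induces in many tissues, had 259, 189, 201 and 201 CPM in control and 315, 311, 248 and 232 in Bmi1-deleted libraries. Control 1 stood apart from the other controls and inside the range of the deleted group (0.38, SE 0.14, adjusted p = 0.483, 0.0813 with the block). Its relative Nkd2 had 106, 131, 61.5 and 79.1 CPM in control and 133, 165, 88.6 and 73.4 in Bmi1-deleted libraries (0.28, SE 0.30, adjusted p = 0.897). Libraries 1 and 2 of either genotype were above libraries 3 and 4 in Nkd2.

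The upstream sequences of Axin2 and Fzd1, both of which passed with the block, are shown from the RefSeq table (GRCm38.p6, the assembly behind mm10) beside that of Sp5, a target gene that these cells barely held. Each runs from 250 bases before the RefSeq start to the base before it, 5′ to 3′ on the gene's strand. For Fzd1 the RefSeq start lies 181 bases from the GENCODE start given above. They lie at chr11:108920099-108920348 (plus strand), chr5:4758217-4758466 (minus strand) and chr2:70474673-70474922 (plus strand). Capitals mark CTTTGAA or CTTTGAT, the core letters that TCF/LEF factors are known to bind, searched on both strands.
Axin2: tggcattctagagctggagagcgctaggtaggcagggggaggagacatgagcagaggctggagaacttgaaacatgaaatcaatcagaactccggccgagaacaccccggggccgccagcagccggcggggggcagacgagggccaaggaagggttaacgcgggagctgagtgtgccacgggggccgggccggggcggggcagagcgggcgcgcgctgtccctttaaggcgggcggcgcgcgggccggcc
Fzd1: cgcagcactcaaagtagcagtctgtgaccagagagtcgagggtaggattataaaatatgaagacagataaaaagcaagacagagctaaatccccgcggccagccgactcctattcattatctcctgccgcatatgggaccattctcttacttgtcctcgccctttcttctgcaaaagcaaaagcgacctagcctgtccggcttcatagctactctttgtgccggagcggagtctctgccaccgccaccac
Sp5: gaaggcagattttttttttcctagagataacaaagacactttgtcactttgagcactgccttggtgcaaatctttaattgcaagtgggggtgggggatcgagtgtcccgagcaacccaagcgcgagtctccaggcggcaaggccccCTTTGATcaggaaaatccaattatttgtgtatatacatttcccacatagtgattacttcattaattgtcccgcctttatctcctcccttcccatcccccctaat
The Axin2 and Fzd1 windows held 0 matches and the Sp5 window held 1. Ctnnb1, which also passed with the block, has entries too, and they held 0 matches. Its windows are not printed here. Sfrp1, the remaining member that passed with the block, has no entry. Among the 29 members with an entry, 4 of 38 windows (10.5%) held a match, those of Sp5, Dkk1, Wnt5b and Wnt11, against 7.48% of the 32817 windows of all genes. Of these 4 members Sp5 and Wnt11 did not pass, and Dkk1 and Wnt5b were left out by the filter. All their control means were below 2 TPM. Binding sites outside the windows, including those in introns, are not covered by this search.

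Secreted and surface antagonists included the member with the smallest blocked p, Sfrp1, and the member with the smallest p without a block, Wif1. Sfrp1 (ENSMUSG00000031548, chromosome 8, 23411502 to 23449632), which binds WNT ligands and Frizzled receptors outside the cell, had 126, 137, 90.8 and 80.0 CPM in control and 186, 231, 133 and 115 in Bmi1-deleted libraries. Each deleted library exceeded the control of its number, and libraries 1 and 2 of either genotype exceeded 3 and 4, so that the groups overlapped (0.62, SE 0.24, adjusted p = 0.532). With the block it rose by 0.60 (SE 0.10, adjusted p = 0.00471) and passed in 3 of 4 fits with a pair dropped, all but that without pair 2 (adjusted p = 0.0727). The log2 change was 0.67 within replicates 1 and 2 and 0.52 within 3 and 4. Without a filter on low counts, where 1.09% of genes were called (0.741% higher and 0.346% lower), Sfrp1 and Wif1 passed (adjusted p = 0.00363 and 0.0132).

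Wif1 (ENSMUSG00000020218, chromosome 10, 121033960 to 121100650), a secreted protein that sequesters WNT ligands, is described after its values were seen. It had 6.48, 16.5, 14.1 and 19.7 CPM in control and 7.61, 2.88, 5.34 and 5.22 in Bmi1-deleted libraries. Control libraries 2, 3 and 4 were above all deleted libraries, and control 1 was within the deleted range. The log2 change was −1.43 (SE 0.39, adjusted p = 0.257, 0.104 with the block), −1.13 within replicates 1 and 2 and −1.70 within 3 and 4. It passed with the block when pair 1 was left out (−1.93, adjusted p = 0.0112).

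Notum, an enzyme that removes the lipid from WNT ligands, had 4.57, 3.30, 6.74 and 5.32 CPM in control and 2.87, 1.79, 2.78 and 0.227 in Bmi1-deleted libraries. The groups did not overlap, and Bmi1-deleted 4 was lowest (−1.37, SE 0.63, adjusted p = 0.601, 0.333 with the block). Control 2 (32 counts) and Bmi1-deleted 1 (26 counts) were close. The antisense gene Notumos overlaps it. Dkk2, a ligand of Lrp5 and Lrp6 that blocks canonical signalling in many settings, went the other way, with 4.04, 2.78, 2.89 and 1.70 CPM in control and 8.05, 7.45, 5.89 and 4.42 in Bmi1-deleted libraries. Every deleted library was above every control (1.17, SE 0.43, adjusted p = 0.477, 0.251 with the block). The margin was small between control 1 (38 counts) and Bmi1-deleted 4 (39 counts).

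Dkk3, the antagonist gene with the highest level per length, had 323, 283, 413 and 437 CPM in control and 190, 215, 332 and 419 in Bmi1-deleted libraries. Libraries 3 and 4 were above 1 and 2 in either genotype and the groups overlapped (−0.33, SE 0.25, adjusted p = 0.821, 0.0992 with the block). Sfrp5, a relative of Sfrp1, stood at 17.0 ± 5.04 and 25.5 ± 6.42 CPM (0.59, adjusted p = 0.565). Kremen1, the surface receptor through which Dkk proteins remove Lrp6, was at 62.4 ± 5.63 and 63.0 ± 10.1 CPM (0.02, adjusted p = 0.991). Sfrp2 and Sfrp4 were below 5 CPM in all libraries, and Dkk1, left out by the filter, had 0, 1, 3 and 5 counts in control and 0 in all Bmi1-deleted libraries.

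**Figure D3:**
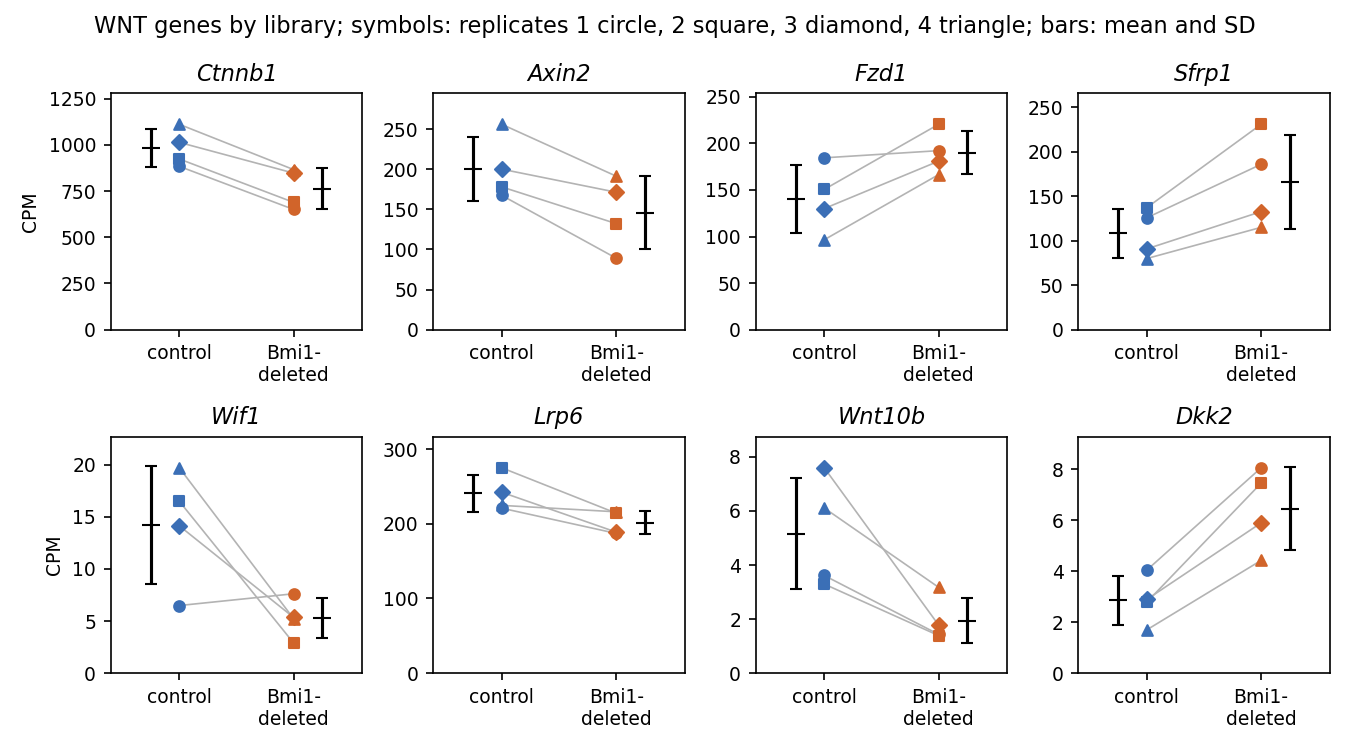
CPM of 8 WNT genes in each library, control in blue and Bmi1-deleted in orange, with lines between libraries of the same replicate number and bars for the mean and SD of 4 libraries. Ctnnb1, Axin2, Fzd1 and Sfrp1 moved the same way in 4 of 4 pairs. These genes were picked by the fit with the same pairs as a block, so this is not separate support. Wif1 was higher in Bmi1-deleted 1 (7.61 CPM) than in control 1 (6.48).

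Markers of fibroblasts, Schwann cells and the melanocyte lineage moved with the same libraries as several of these genes. The fibroblast sum was 8522, 6886, 5639 and 5062 CPM in control libraries 1 to 4 and 18186, 14877, 10660 and 8302 in Bmi1-deleted libraries 1 to 4 (exact two-sided permutation p = 0.0571, 0.19 adjusted over 10 marker lists). Among the deleted libraries Axin2, Dkk3 and Ctnnb1 went from lowest in library 1 to highest in library 4 as the sum went from highest to lowest. With the mean log2 level of the tested fibroblast markers as a covariate and no block, the log2 change of Axin2 was −0.10 (SE 0.16). That of Ctnnb1 was −0.20, of Sfrp1 0.23, of Fzd1 0.28 and of Dkk3 0.08. In this fit 0 of 41 members passed. The fit without block or covariate also called 0 members, and 0.0937% of all tested genes. Wif1 had −1.49 (SE 0.49) with the covariate. Other changes moved further from 0, among them Wnt3 (−4.59, SE 1.44), Notum (−2.23, SE 0.89) and Fzd7 (−0.42, SE 0.14). The covariate ran from 4.82 to 5.36 in control and from 4.83 to 6.67 in Bmi1-deleted libraries, so it was not independent of genotype. The counts over all genes in this fit are given below. A further fit held both the block and the covariate, and 1.94% of genes were called in it (1.46% higher and 0.481% lower). There Fzd1 (0.77, adjusted p = 0.0158) and Wnt6 (1.43, adjusted p = 0.0369) rose. Sfrp1 (0.58, adjusted p = 0.08), Ctnnb1 (−0.35, adjusted p = 0.238) and Axin2 (−0.33, adjusted p = 0.423) did not pass. With genotype, block and covariate fitted to 8 libraries, little is left to estimate the spread. The log2 changes with the block alone were 0.47 for Fzd1 and 0.74 for Wnt6.

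Schwann cell markers summed to 4034, 3498, 2851 and 2207 CPM in control and 4773, 5418, 4646 and 3974 in Bmi1-deleted libraries (exact permutation p = 0.0571). Within each genotype these sums had the same library order as Fzd1. Melanocyte lineage markers summed to 9268, 10424, 13108 and 15341 CPM in control and 5598, 5261, 9113 and 10753 in Bmi1-deleted libraries (exact permutation p = 0.114). In control libraries this sum had the same order as Ctnnb1 and Axin2. With the replicate block 6 of 14 tested fibroblast markers and 5 of 9 Schwann markers rose, and 9 of 12 melanocyte lineage markers fell. Of all tested genes 1.71% rose and 0.706% fell in that fit. The fibroblast, Schwann and melanocyte lineage sums each differed in the same direction in all 4 pairs. The mural, skeletal muscle and adipocyte sums were also higher in the Bmi1-deleted library of every pair. Log2 changes were above 0 for 7 of 7 tested mural and 6 of 7 endothelial markers, against 50.7% of all tested genes. The same held for 4 of 5 immune, 4 of 4 dermal papilla and 12 of 15 keratinocyte markers. With the block 2 keratinocyte markers rose. Keratinocyte, endothelial, mural, immune, dermal papilla and skeletal muscle lists had exact permutation p-values from 0.143 to 0.571. The adipocyte list was below 3 CPM in all libraries (exact permutation p = 0.0286), and after adjustment over the 10 lists no p was under 0.19. The part of these other cell types in the WNT values was not tested.

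**Figure D4:**
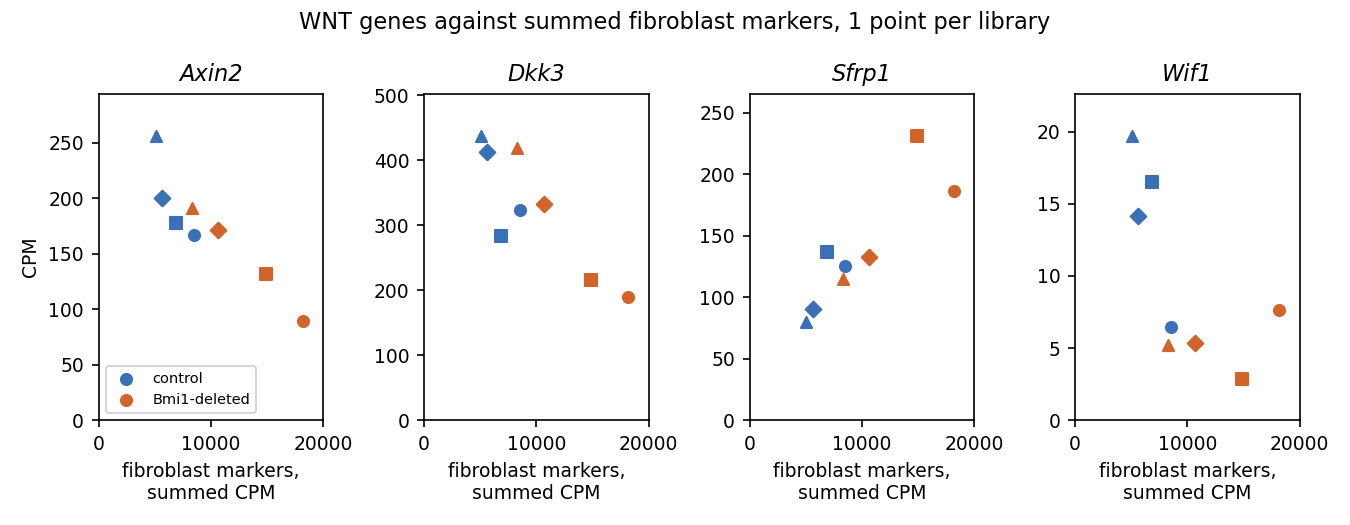
CPM of Axin2, Dkk3, Sfrp1 and Wif1 against the summed CPM of 17 fibroblast markers, 1 point per library, blue for control and orange for Bmi1-deleted, with the same symbol for each replicate number. Bmi1-deleted 1, with the highest marker sum (18186 CPM), had the lowest Axin2 (89.1 CPM) and Dkk3 (190 CPM).

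The rest of the pathway was read from a list of 124 symbols, of which 121 were in the table and 96 were tested. As with the members, 0 rose and 0 fell without the block by edgeR, where 0.0937% of all tested genes were called. At an unadjusted p under 0.05 there were 11 (11.5%), 7 higher and 4 lower, against 8.27% of all genes. DESeq2 called 1 higher and 1 lower, against 0.766% of the genes it tested. With the block the counts were 3 higher and 1 lower (4.17%), against 2.41% of all genes. For 5 of the 96 genes (5.21%), 2 higher and 3 lower, the CPM ranges of the genotypes were separate. Among all tested genes the share was 5.18%. Over these 96 genes the median log2 change was 0.05. The 7 further ligand genes, among them Wnt1 and Wnt2, were all left out by the filter.

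Sostdc1, a secreted antagonist of BMP signals and of WNT signals through Lrp5 and Lrp6, had 153, 98.6, 113 and 92.2 CPM in control libraries. In Bmi1-deleted libraries it had 256, 194, 165 and 183 CPM. All deleted libraries exceeded all controls (0.80, SE 0.18, adjusted p = 0.131, 0.000947 with the block, 0.00729 by DESeq2). Dropping any single pair from the blocked fit left it past the threshold (4 of 4 fits, highest adjusted p 0.0241). Lgr6, an R-spondin receptor, also passed in 4 of 4 such fits, in the other direction (−1.14, adjusted p = 0.0515, 0.00247 with the block). Apcdd1, a membrane antagonist of hair follicles, had 0.62 (adjusted p = 0.531, 0.0294 with the block), and Nfatc2, a factor of the calcium branch, 0.54 (adjusted p = 0.736, 0.0159 with the block). Apcdd1 passed in 0 and Nfatc2 in 1 of 4 blocked fits with a pair left out.

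Further genes on this list with small p-values did not pass with the block. Ephb2, a target gene in several epithelia, had 27.4, 27.2, 27.5 and 25.7 CPM in control and 39.8, 38.8, 42.5 and 36.2 in Bmi1-deleted libraries, without overlap (0.55, SE 0.15, adjusted p = 0.256, 0.104 with the block). Rnf43, a ubiquitin ligase that removes Frizzled receptors, stood at 9.13 ± 1.96 and 5.37 ± 1.10 CPM (−0.76, adjusted p = 0.575), and Plcb4, a phospholipase, at 69.2 ± 12.6 and 51.7 ± 5.61 (−0.42, adjusted p = 0.468), both without overlap. Tnfrsf19, a target gene of the hair follicle, had −0.77 (adjusted p = 0.405), Apc2, a relative of Apc, 0.74 (adjusted p = 0.435), Pygo2, a nuclear partner of beta-catenin, 0.41 (adjusted p = 0.561), and Gpc3, a glypican, 0.91 (adjusted p = 0.577). Tnfrsf19 fell with the block and the fibroblast covariate together (−1.43, adjusted p = 0.00337), a fit that leaves little to estimate the spread.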

How the data were processed

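The authors deposited estimated counts per gene, given as whole numbers and not normalised; the submitters' processing notes name Salmon 1.2.1 and mm10. The second deposited table holds log2 values, the binary logarithm of TPM plus 1. The annotation and strand setting are not given in the material used here. Per the labels, RNA from more than 10000 sorted cells was used, 1 ng per library, with 2 rounds of 15 PCR cycles and no molecular identifiers mentioned, so counts include PCR copies and floors cover counting error only.

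Symbols, positions and exon lengths came from GENCODE M21 (54166 of 54418 identifiers matched). Counts were filtered with filterByExpr, scaled by TMM and tested in edgeR 4.0.16 (quasi-likelihood, robust, two-sided, R 4.3.3) over all genes, with Benjamini-Hochberg adjustment and a threshold of 0.05. The SE comes from the F statistic. The fit was tested on simulated data: of 200 genes changed by a fold of 2 among 16011, 30.5% were recovered, and by a fold of 4, 66.5%. Alternatives used DESeq2 1.42.0, limma 3.58.1 on log2 TPM, other scalings and filters, a replicate block, a fibroblast covariate and left-out libraries.

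Same-numbered libraries, after centring within genotype, correlated at 0.124 to 0.186 across genes, so the numbers were taken as pairs by a threshold of 0.1. However, only 4 of 8 libraries matched their own number best, and no label gives a batch or litter. Every best match lay within libraries 1 and 2 or within libraries 3 and 4. The unblocked fit was kept as the main result with blocked values beside it. Members with values per library were those called with or without the block, those whose groups did not overlap, and the 2 highest per role in TPM; Wif1, Sp5 and the members under the filter were added after their values were seen. Other pathway genes named were those called, without overlap or among the 10 smallest p-values, with values per library for Sostdc1 and Ephb2, chosen after they were seen. Members and lists were chosen with earlier results of these data known. All columns were used, and reads were not analysed here.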

Additional observations from a re-analysis of the deposited data

Results flagged for a closer look

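In 1 of 82 groups of 4 libraries (41 members in 2 genotypes) a single library stood far from the other 3. Nkd1 had 259 CPM in control 1 against 189 to 201 CPM in the other control libraries. Chance gives such a gap in about 1 of 20 groups.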

How the results depend on the processing

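Over all genes 14 were higher and 1 lower without a block. The counts (higher and lower) were 17 and 3 with RLE scaling, 14 and 3 without scaling factors, 16 and 2 when 4 libraries had to reach 10 CPM, 259 and 121 with no filter beyond 1 count, 106 and 52 by DESeq2, and 23 and 2 with the fibroblast covariate. They were 0 and 0 by limma on log2 TPM with or without a filter, 3 and 1 on rescaled TPM plus 0.5, 83 and 73 in replicates 1 and 2, 11 and 6 in replicates 3 and 4, and, leaving out 1 library, from 8 to 40 and from 0 to 5 (40 and 5 without control 1, 8 and 0 without control 2, 9 and 1 without Bmi1-deleted 2, 13 and 2 without Bmi1-deleted 4, and 0 lower without control 3 or 4 or Bmi1-deleted 1 or 3). With the replicate block they were 273 and 113, with block and covariate 233 and 77, and, in fits added after seeing the data, 267 and 119 with a term for replicates 1 and 2 against 3 and 4, and 264 and 87, 89 and 24, 153 and 85, and 124 and 65 with the block and pair 1, 2, 3 or 4 left out. For the WNT members the counts were 0 and 0 without a block, 1 and 1 with no filter, 2 and 2 with the replicate block, 2 and 0 with block and covariate, 1 and 0 in replicates 1 and 2, 2 and 1 with the term for replicates 1 and 2, and 2 and 1, 0 and 0, 1 and 1, and 1 and 0 with the block and a pair left out; all other alternatives gave 0, including the 8 fits without 1 library. For the other pathway genes they were 0 and 1 with RLE, no scaling or the 10 CPM filter, 2 and 2 with no filter, 1 and 1 by DESeq2, 3 and 1 with the replicate block or the term for replicates 1 and 2, 2 and 2 with block and covariate, 2 and 2, 1 and 1, 1 and 1, and 1 and 1 with the block and a pair left out, and 0 to 1 and 0 to 1 without 1 library, the 1 and 1 arising without control 1. The cause of these differences was not tested. Of the 41 members, 23 changed sign under at least 1 of 26 alternatives without being called in either fit, and 0 of those had an unadjusted p under 0.05. The 10 members with the highest level per length shared 7 with the order by CPM per kb of merged exons. Changes in members of a few CPM are limited by depth.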

Other observations

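Wnt5a, a ligand of the non-canonical branch, had 15.8 rescaled TPM in Bmi1-deleted 3 against 0.37 to 1.07 in the other deleted libraries and 0.37 to 2.10 in control libraries, while its CPM in that library was 4.00 against 1.59 to 2.98 in the other deleted libraries. An antisense gene, Gm2670, overlaps it.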
